A study of Homo sapiens with 6 samples.

Results

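The 10 genes described here encode subunits of AP-1 and its close relatives: JUN, JUNB and JUND of the JUN class, FOS, FOSB, FOSL1 and FOSL2 of the FOS class, and BATF, BATF3 and ATF3. They were chosen by gene symbol from the platform annotation. Each of the 10 symbols had 1 probe set, out of 21448 probe sets measured in all. The samples came from Jurkat, a human leukaemia line of T-cell origin, grown in medium with 10% serum. Cells of both groups were kept without serum for 90 min. The CXCL12 group (n = 3) then received the chemokine CXCL12 at 100 ng/ml for 15 min, and the untreated group (n = 3) did not. RNA of each sample was hybridised to its own Affymetrix whole-transcript array. The titles call the samples biological replicates without saying whether they were separate cultures, so p-values here reflect the spread among these 6 samples alone, part of which may be technical.

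AP-1 is a dimer of basic leucine zipper proteins, in which the basic regions contact DNA and the zippers hold the subunits together. JUN proteins can pair with each other or with FOS proteins, whereas FOS proteins need a JUN partner to bind stably. BATF and BATF3 lack the activation domains of FOS and pair with JUN proteins, often beside IRF factors in lymphocytes. ATF3 is a stress-induced member that pairs with JUN proteins and often represses. In T cells AP-1 acts with NFAT at cytokine genes, and JUN and FOS are classical immediate early genes, transcribed within minutes of a stimulus without new protein synthesis.

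The stretches upstream of JUN, FOS and ATF3 are shown because JUN and FOS are the pair the comparison turns on, and ATF3 carries the same 8 bases as JUN. Each covers the 250 bases before the RefSeq gene start, on the strand of the gene, from assembly GRCh38.p14, and ATF3 is shown at its upstream start. Capitals mark matches, on either strand, to TGANTCA, TGACNTCA or TGACGT. The last is contained in the TGACGTCA form of TGACNTCA.
JUN (chr1:58784048-58784297, minus strand): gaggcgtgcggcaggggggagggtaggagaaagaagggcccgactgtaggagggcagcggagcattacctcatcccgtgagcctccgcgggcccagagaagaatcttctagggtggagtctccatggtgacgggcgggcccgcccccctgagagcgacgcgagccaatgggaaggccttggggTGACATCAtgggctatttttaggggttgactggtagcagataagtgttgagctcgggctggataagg
FOS (chr14:75278578-75278827, plus strand): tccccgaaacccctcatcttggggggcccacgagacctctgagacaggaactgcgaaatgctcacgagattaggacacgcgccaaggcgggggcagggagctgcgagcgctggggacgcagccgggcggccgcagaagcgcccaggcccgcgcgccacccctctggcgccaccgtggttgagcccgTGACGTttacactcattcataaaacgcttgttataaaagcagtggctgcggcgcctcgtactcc
ATF3 (chr1:212565157-212565406, plus strand): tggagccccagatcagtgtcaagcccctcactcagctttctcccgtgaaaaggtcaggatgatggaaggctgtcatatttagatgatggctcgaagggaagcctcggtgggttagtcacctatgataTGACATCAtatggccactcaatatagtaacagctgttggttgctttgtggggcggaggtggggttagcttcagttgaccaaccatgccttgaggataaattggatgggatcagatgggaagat
The match in JUN was TGACATCA, 67 to 60 bases before the start. ATF3 held the same TGACATCA at 123 to 116 bases before its upstream start. FOS held no TGACNTCA in this window, but TGACGT at 64 to 59 bases before the start. The other FOS class genes with a window also held TGACGT, FOSB at 60 to 55 and FOSL2 at 66 to 61 bases before the start. JUND held TGACGTCA, at 200 to 193 bases, and a further TGACGT on the opposite strand at 87 to 82 bases. JUNB and BATF held none of these motifs. Windows were matched for 8 of the 10 members, 9 windows in all, since ATF3 has a second start. Of the 9, 3 held TGACNTCA, 4 held TGACGT, 0 held TGANTCA and 0 held a CArG box, the element bound by serum response factor. Over 35116 windows of the same length the shares were 6.87%, 7.1%, 6.57% and 1.16% in that order. These matches describe the letters in the windows and are not evidence of binding. Bases farther upstream were not searched, so a motif or CArG box counted as absent, also for FOS, may lie outside the window.

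Array values are log2 signals per probe set, normalized by the authors. A probe set's level depends on its probes as well as on the transcript, so levels of different genes are not read as relative amounts of transcript. Markers of other lineages are set beside the members below only as a caution. A mean log2 signal below 4.44, the 25th percentile of all probe sets, was taken as dim. All 10 members lay above this limit and were tested. FOSB was nearest to it, at 4.80 ± 0.06 in CXCL12 and 4.60 ± 0.20 in untreated arrays (SD, n = 3 each). Median log2 signals ran from 6.205 to 6.215 in CXCL12 arrays and from 6.181 to 6.195 in untreated arrays. Every CXCL12 median thus lay above every untreated median. Untreated replicate 1 stood apart, with a mean correlation with the other arrays of 0.982, against 0.987 to 0.989 for the rest. T lineage identity was checked on 10 markers, whose group means lay between 8.20 and 11.4. These markers do not tell Jurkat from other T cells. Of 12 markers of other lineages (B cell, myeloid, erythroid and fibroblast), MS4A1 and LYZ were dim and the other 10 were above the dim limit, with group means from 4.90 to 7.93 in CXCL12 and from 4.71 to 7.92 in untreated arrays, CD79A being the highest. None of the 10 passed the adjusted threshold (limma, 0 of 10). Apart from JUND in CXCL12 arrays (8.10), no AP-1 member had a group mean above that of CD79A in the same group. Being above the dim limit does not by itself show a transcript, and the part of such signals in the results was not tested.

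JUN was the AP-1 member with the highest change. It is the founding JUN subunit, and JNK kinases phosphorylate its activation domain. Its log2 signal was 6.42, 6.25 and 6.54 in CXCL12 replicates 1 to 3, against 5.50, 5.87 and 5.78 in untreated replicates 1 to 3. Every CXCL12 array lay above every untreated array. The means were 6.41 ± 0.15 and 5.72 ± 0.20 (SD, n = 3 each), a signal 1.61-fold higher with CXCL12 (95% interval 1.31 to 1.98). The limma log2 change was 0.69 (SE 0.14), with an unadjusted p of 0.000299 and a limma adjusted p of 0.535 over the 16086 probe sets tested, so JUN did not pass the threshold of 0.05. Without untreated replicate 1, the array in which JUN was lowest, the log2 change was 0.58 (limma unadjusted p = 0.000964, adjusted p = 0.723).

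None of the 10 members passed the adjusted threshold (0 of 10), which 0.0124% of all tested probe sets did. At an unadjusted limma p under 0.05 there was 1 member, JUN, against 4.73% of all probe sets (2.72% higher and 2.01% lower). The 2 probe sets past the adjusted threshold were EGR1, with a log2 change of 1.98, and CD69, with 1.34. The change was above 0 in 8 of the 10 members and below 0 in 2, at a median of 0.16 on the log2 scale, where all tested probe sets had a median of 0.00228 and 50.7% were positive. The members share the same 6 arrays, and this count carries no test.

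**Figure D1:**
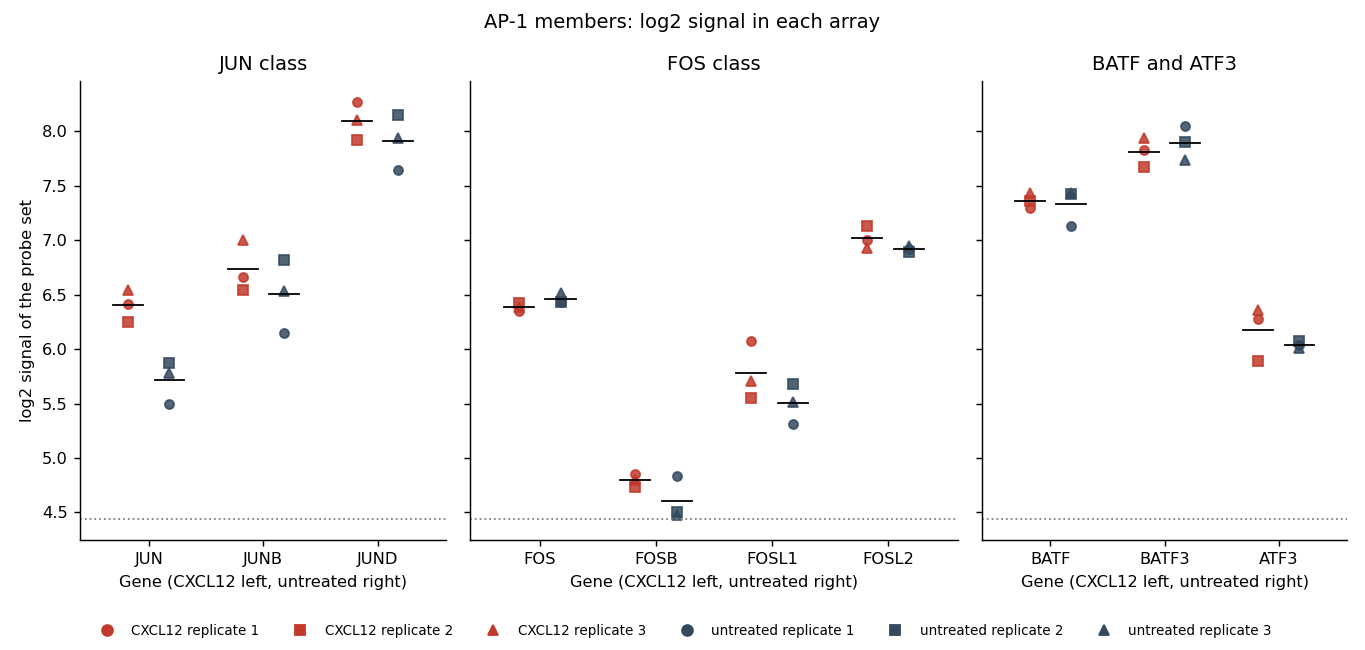
Log2 signal of each AP-1 member in each of the 6 arrays, with CXCL12 (red) left of untreated (dark) for every gene, bars at the group means and a dotted line at the dim limit of 4.44. The arrays of JUN separate, from 6.25 upward in CXCL12 and up to 5.87 in untreated, whereas those of JUNB, JUND and most other members overlap.

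The other JUN class genes had smaller changes, with overlapping arrays. JUNB, a JUN paralog with weaker activation capacity that can restrain JUN, had 6.67, 6.54 and 7.004 in CXCL12 arrays, against 6.15, 6.82 and 6.54 in untreated arrays. Its highest untreated array lay above 2 of the 3 CXCL12 arrays. The log2 change was 0.23 (95% interval -0.15 to 0.62, limma adjusted p = 0.996). JUND, which most cells express without a stimulus, had 8.27, 7.92 and 8.10 in CXCL12 arrays, against 7.64, 8.15 and 7.94 in untreated arrays. The JUND log2 change was 0.19 (95% interval -0.14 to 0.52, limma adjusted p = 0.996). All 3 JUN class genes were lowest in untreated replicate 1 and, among untreated arrays, highest in replicate 2. Without untreated replicate 1 the change was 0.06 for JUNB and 0.05 for JUND, so most of both values rested on that array. Without untreated replicate 2 they were 0.39 and 0.31. JUNB was at 0.10 without CXCL12 replicate 3, and JUND was at 0.10 without CXCL12 replicate 1.

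FOS, the immediate early partner of JUN, had 6.354, 6.427 and 6.386 in CXCL12 arrays, against 6.432, 6.436 and 6.518 in untreated arrays. The groups did not overlap, with CXCL12 lower, but the gap was between 6.427 and 6.432. The log2 change was -0.07 (95% interval -0.32 to 0.17, limma unadjusted p = 0.53), and it was -0.05 without untreated replicate 3. The interval runs from 0.801-fold to 1.13-fold in the signal of this probe set and is not adjusted for the number of genes. FOS group means, 6.39 and 6.46, lay within the range of the other-lineage markers, as did those of JUN, 6.41 and 5.72. How far either signal reports its transcript was not tested. Separation of the arrays was thus seen in 2 of 10 members, JUN higher and FOS lower, against 9.54% of all tested probe sets, 5.05% in the higher direction and 4.48% in the lower.

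FOSB, FOSL1 and FOSL2 had positive changes that did not pass. FOSB, a paralog of FOS that is also induced as an immediate early gene, had 4.85, 4.73 and 4.80 in CXCL12 arrays, against 4.83, 4.50 and 4.48 in untreated arrays. The CXCL12 values were close together, and untreated replicate 1 lay among them. Its log2 change was 0.19 (95% interval -0.09 to 0.48, limma adjusted p = 0.996), or 0.31 without untreated replicate 1 (limma adjusted p = 0.979), 0.14 without untreated replicate 2 and 0.13 without untreated replicate 3. FOSL1, which encodes FRA1, had 6.07, 5.55 and 5.71 in CXCL12 arrays, against 5.32, 5.68 and 5.51 in untreated arrays. CXCL12 replicate 1 was the high array, and the FOSL1 log2 change of 0.27 (95% interval -0.06 to 0.61, limma adjusted p = 0.996) was 0.13 without it and 0.18 without untreated replicate 1. FOSL2, which encodes FRA2, had 6.999, 7.13 and 6.93 in CXCL12 arrays, against 6.92, 6.89 and 6.95 in untreated arrays. The FOSL2 change was 0.10 (95% interval -0.15 to 0.35, limma adjusted p = 0.996), or 0.04 without CXCL12 replicate 2.

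ATF3, BATF and BATF3 had changes between -0.08 and 0.14, none of which passed. ATF3 had 6.28, 5.89 and 6.36 in CXCL12 arrays, against 6.04, 6.08 and 6.01 in untreated arrays. CXCL12 replicates 1 and 3 were above all untreated arrays and replicate 2 was below them. The ATF3 log2 change was 0.14 (95% interval -0.17 to 0.44, limma adjusted p = 0.996), and leaving out CXCL12 replicate 1, 2 or 3 gave 0.08, 0.28 and 0.04. BATF had 7.29, 7.36 and 7.43 in CXCL12 arrays, against 7.13, 7.43 and 7.43 in untreated arrays, a log2 change of 0.03 (95% interval -0.25 to 0.31). Its sign turned without untreated replicate 1, where the change was -0.07, and without CXCL12 replicate 3, where it was -0.00636. It was 0.08 without untreated replicate 2 or 3 and 0.06 without CXCL12 replicate 1. BATF3 had 7.83, 7.67 and 7.94 in CXCL12 arrays, against 8.05, 7.91 and 7.73 in untreated arrays, a log2 change of -0.08 (95% interval -0.37 to 0.20). The BATF3 change was near 0 when untreated replicate 1 (-0.00770) or CXCL12 replicate 2 (-0.0139) was left out, and was -0.17 or -0.15 when untreated or CXCL12 replicate 3 was. BATF and BATF3 overlapped between the groups, and both had a limma adjusted p of 0.996.

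A signal change of more than 1.5-fold in either direction fell outside the unadjusted 95% interval of 7 of the 10 members, against 89.9% of all tested probe sets. The exceptions were JUN, JUNB and FOSL1. The intervals of JUNB and FOSL1 also included 0, so both a change of 0 and one of 1.5-fold lay within them.

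**Figure D2:**
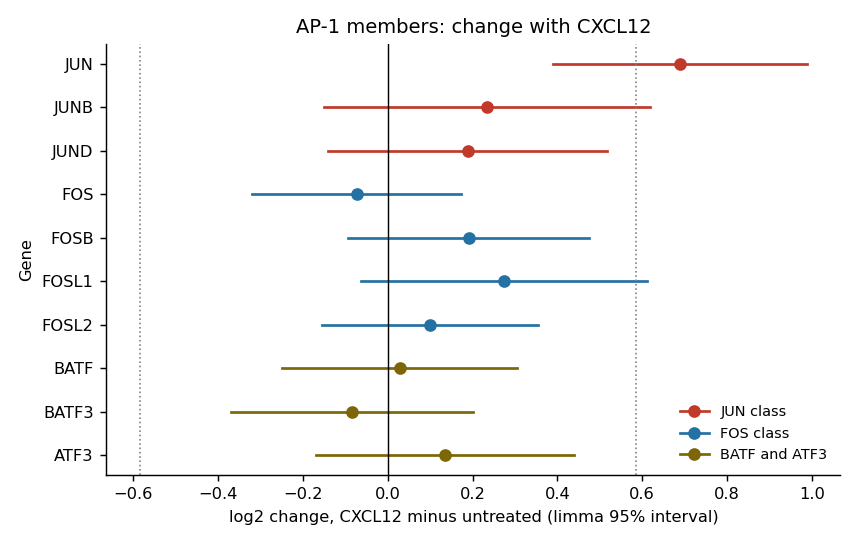
Log2 change of each AP-1 member, CXCL12 minus untreated, with limma 95% intervals, coloured by class. Dotted lines mark a 1.5-fold change either way. The interval of JUN, from 0.39 to 0.99, is the 1 that leaves out 0.

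Whether JUN and FOS changed alike was examined within each array, as the JUN minus FOS difference of log2 signals. It was 0.06, -0.17 and 0.16 in CXCL12 arrays, against -0.94, -0.57 and -0.74 in untreated arrays. Every CXCL12 array lay above every untreated array. The mean difference was 0.02 ± 0.17 in CXCL12 and -0.75 ± 0.19 in untreated arrays (SD, n = 3 each). JUN changed by 0.76 more than FOS on the log2 scale (SE 0.15, 95% interval 0.36 to 1.17 from the spread of the 6 differences), which is a JUN to FOS ratio 1.696-fold higher with CXCL12. The exact two-sided permutation p was 0.1, the smallest that 3 arrays against 3 can give, so this test could not pass 0.05. Since each difference is taken within an array, a shift of a whole array cancels. Without untreated replicate 1 the value was 0.67. The value near 0 in CXCL12 arrays does not mean equal amounts of both transcripts, because different probes report them.

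The same difference was formed between JUN and each of the 9 other members. The size ran from 0.41 (FOSL1) to 0.77 (BATF3). Since JUN had the highest change of the 10, these differences are positive by construction and their sign says nothing further. The interval of the pair with FOSB ran from -0.15 to 1.15 and that of the pair with FOSL1 from -0.00118 to 0.83. Within its own class, JUN changed by 0.45 more than JUNB (95% interval 0.15 to 0.76) and by 0.50 more than JUND (0.24 to 0.77). The 9 pairs share the JUN values, so they are not separate evidence. Apart from the JUN and FOS pair they were not tested, and the intervals are not adjusted for their number.

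**Figure D3:**
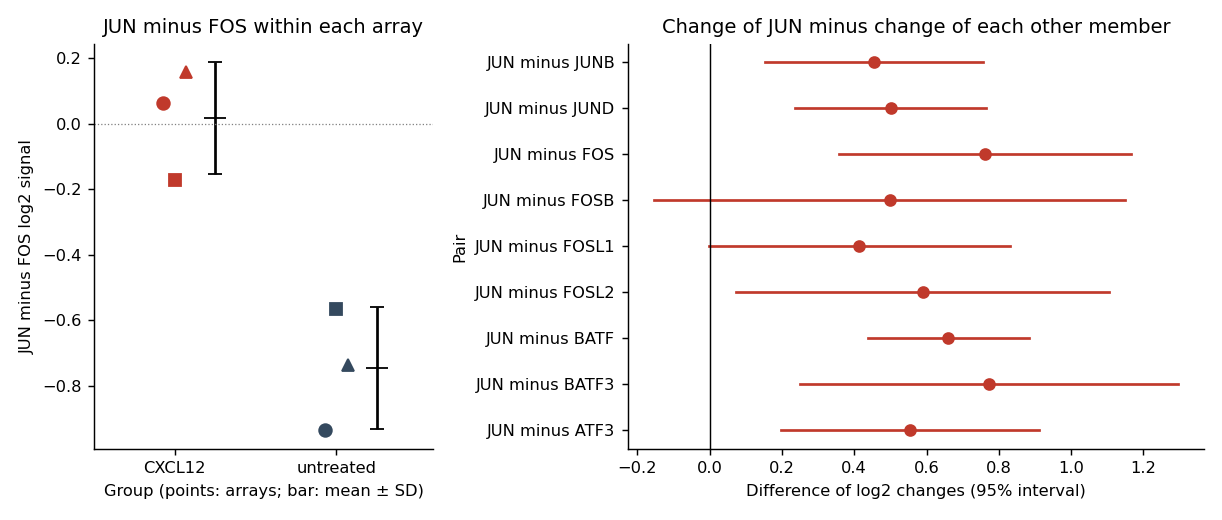
Left, JUN minus FOS log2 signal in each array, with CXCL12 left of untreated and bars for mean ± SD (n = 3 each): the CXCL12 arrays lie from -0.17 to 0.16 and the untreated arrays from -0.94 to -0.57. Right, the change of JUN minus that of each other member with 95% intervals, from 0.41 (FOSL1) to 0.77 (BATF3); the sign is fixed, since JUN had the highest change.

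The probe sets whose pattern over the 6 arrays was nearest to that of JUN were ADM, SLC2A3, IER2, CSRNP1 and DNAJB1. Likeness was the root mean square difference between log2 signals centred on each probe set's mean, among 13454 named genes. ADM, which encodes the peptide adrenomedullin, differed from JUN by 0.0747, and SLC2A3, which encodes the glucose transporter GLUT3, by 0.0798. IER2, an immediate early gene, differed by 0.124, CSRNP1, a nuclear factor first described as induced by AXIN1, by 0.136 and the co-chaperone gene DNAJB1 by 0.137. The centred values of JUN themselves had a root mean square of 0.372. SLC2A3 had 8.97, 8.996 and 9.27 in CXCL12 arrays, against 8.25, 8.61 and 8.58 in untreated arrays (log2 change 0.59, 95% interval 0.29 to 0.90, limma adjusted p = 0.829). The 5 genes and JUN all had their lowest value in untreated replicate 1, and none of the 5 passed the adjusted threshold. Because they were picked for likeness to JUN, neither their shared lowest array nor their separation between groups adds anything. FOS lay at 0.408 from JUN, at rank 7634 of 13454, and the nearest other member, JUNB, lay at 0.252, at rank 373. A profile without any variation would lie at 0.372.

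**Figure D4:**
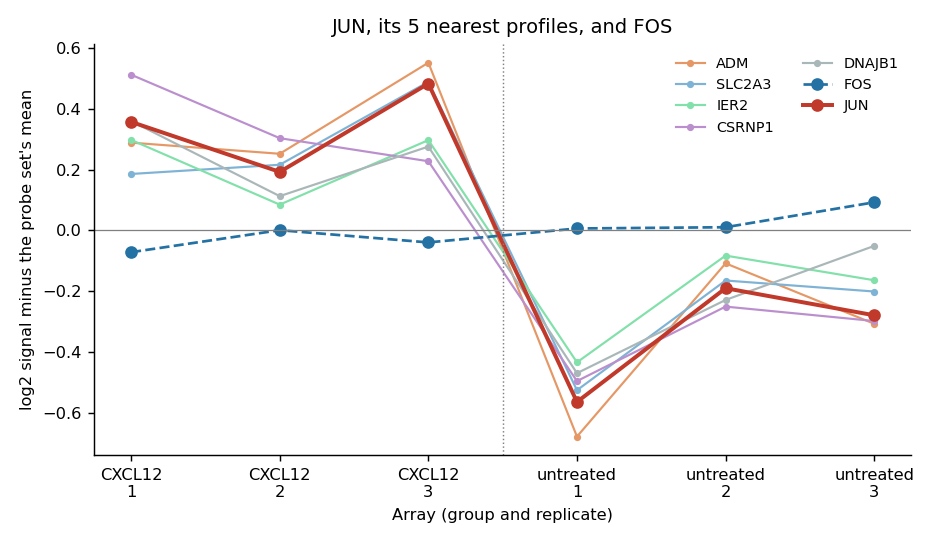
Log2 signal minus the probe set's own mean in the 6 arrays, CXCL12 left of untreated, for JUN (thick red), the 5 genes with the nearest profile (thin) and FOS (dashed blue). The 5 neighbours are lowest in untreated replicate 1 like JUN, for likeness to which they were picked, whereas FOS stays close to 0.

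Untreated replicate 1 was the lowest of the 6 arrays for 5 of the 10 members (JUN, JUNB, JUND, FOSL1 and BATF) and the highest for 1 (BATF3). Over all tested probe sets it was the lowest for 24.96% and the highest for 24.3%. Without it the change was 0.18 for FOSL1 and -0.00770 for BATF3, and the values of JUN, JUNB, JUND and BATF without it are given above. What set this array apart was not tested.

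Genes that act around AP-1 were listed by role, with earlier results of these data known. The 1 that passed the adjusted threshold was CD69, already named above as past it, so this count adds nothing about AP-1. Other leucine zipper proteins that can pair with JUN, FOS or their relatives, or share their binding sites, made a list of 36. Of these, 6 had no probe set, 1 was dim and 29 were tested. After adjustment by limma 0 rose or fell (unadjusted p under 0.05 for 1 higher and 0 lower). Over all tested probe sets, 4.73% had an unadjusted limma p under 0.05 and 50.7% were positive. The median log2 change of the 29 was -0.02, with 14 positive and 15 negative. BACH2, a repressor in lymphocytes that competes for AP-1-like sites, had 7.64, 7.67 and 7.98 in CXCL12 arrays, against 7.30, 7.45 and 7.15 in untreated arrays. Its arrays did not overlap, as for 9.54% of all tested probe sets (log2 change 0.46, 95% interval 0.16 to 0.76, limma adjusted p = 0.996). CEBPE and CREB3 had -0.27 and -0.24, with intervals that included 0, and CEBPE was at -0.15 without CXCL12 replicate 2. The arrays of CREB3 did not overlap either, with CXCL12 lower.

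Of 30 listed genes of the JNK pathway, whose kinases phosphorylate JUN, 7 had no probe set, 1 was dim and 22 were tested. Of the 22, 0 passed by limma in either direction (unadjusted p under 0.05 for 1 higher and 0 lower). The share of all tested probe sets with an unadjusted limma p under 0.05 was 4.73%. The median log2 change of the 22 was -0.00406, with 11 positive and 11 negative. TNIK, a kinase reported to activate JNK, had 5.91, 6.16 and 5.99 in CXCL12 arrays, against 5.34, 5.63 and 5.49 in untreated arrays (log2 change 0.53, 95% interval 0.25 to 0.81, limma adjusted p = 0.829). MAPK8IP1, the JNK scaffold JIP1, had 0.24, and TAB2, an adaptor of the kinase TAK1, had -0.24, or -0.13 without untreated replicate 1 and -0.15 without CXCL12 replicate 3. Of 22 listed genes for turnover of JUN and FOS proteins, 4 had no probe set and 18 were tested, with a median log2 change of 0.00219. Of the 18, 0 passed by limma (unadjusted p under 0.05 for 1 higher and 0 lower). NDFIP2, an adaptor of ubiquitin ligases of the NEDD4 family, had 6.92, 6.42 and 7.22 in CXCL12 arrays, against 6.38, 6.12 and 6.38 in untreated arrays (log2 change 0.56, 95% interval 0.17 to 0.95, limma adjusted p = 0.996), and dropping CXCL12 replicate 3 gave 0.38 and dropping CXCL12 replicate 2 gave 0.78. USP28, a deubiquitinase, had -0.20 (-0.10 without untreated replicate 2) and CUL1, a ubiquitin ligase scaffold, -0.20. The arrays of TNIK, MAPK8IP1 and NDFIP2 did not overlap, with CXCL12 higher, as for 5.05% of all tested probe sets.

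Of 24 listed cofactors that bind AP-1 or act at shared sites, 4 had no probe set, 1 was dim and 19 were tested. The 19 had 5 positive and 14 negative changes, with a median of -0.06, where 50.7% of all tested probe sets were positive. They share the same 6 arrays, and this split carries no test. Of the 19, 0 passed by limma, also at an unadjusted p under 0.05, which 4.73% of all tested probe sets had. HIF1A had -0.30, IRF4, a partner of BATF and JUN dimers, 0.24, and NFATC3, an NFAT factor, 0.23, all with intervals that included 0. The arrays of NFATC3 did not overlap, with CXCL12 higher, as for 5.05% of all tested probe sets. HIF1A was at -0.14 when CXCL12 replicate 3 was dropped and at -0.49 when CXCL12 replicate 2 was, and IRF4 was at 0.16 without CXCL12 replicate 3. Of 34 symbols listed as AP-1 targets in various cells, 30 had a probe set, 9 were dim and 21 were tested, with a median log2 change of 0.05. CD69 was the 1 that rose by limma, and 0 fell. At an unadjusted limma p under 0.05 there were 2 higher and 1 lower, against 2.72% and 2.01% of all tested probe sets. CD69, an early activation receptor, had 7.32, 7.04 and 7.36 in CXCL12 arrays, against 6.06, 5.49 and 6.15 in untreated arrays (limma adjusted p = 0.0394). This call was lost without untreated replicate 2 (limma adjusted p = 0.0674) and without CXCL12 replicate 1, 2 or 3 (limma adjusted p = 0.342, 0.0687 and 0.532). It was also lost with no dim filter (0.0547), median centring (0.0501) and cyclic loess (0.0503). MMP9, a gelatinase, had 0.34 (95% interval 0.02 to 0.66) and CD44, a hyaluronan receptor, -0.35 (-0.69 to -0.02), each with overlapping arrays and a limma adjusted p of 0.996. Leaving out an array moved MMP9 to as little as 0.22 (without CXCL12 replicate 1) and CD44 to -0.21 (without untreated replicate 2).

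**Figure D5:**
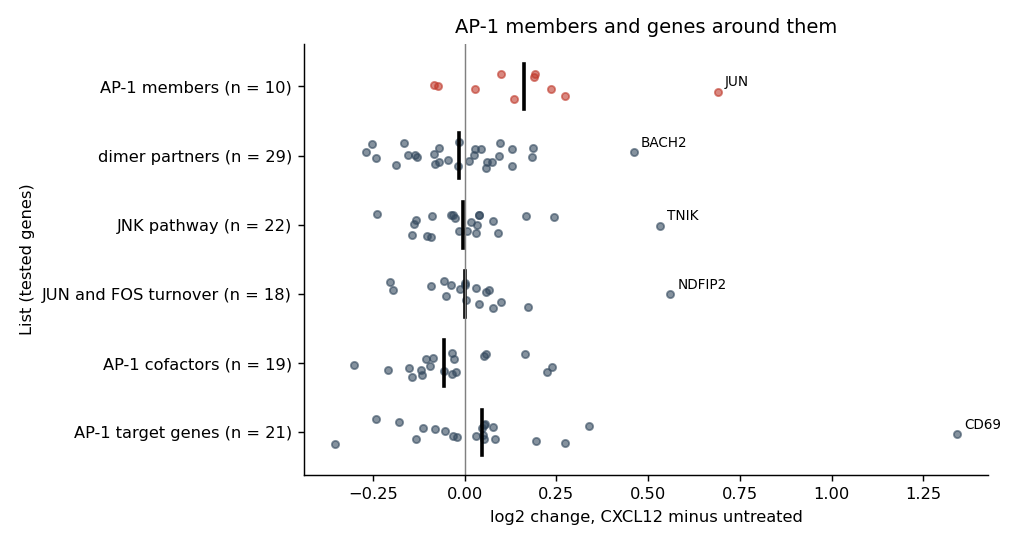
Log2 change, CXCL12 minus untreated, of the 10 AP-1 members (red) and of the tested genes of 5 lists around AP-1 (dark), 1 point per gene, with black bars at the medians. JUN lies at 0.69 beside the other members, and CD69 at 1.34 is the 1 listed gene past the adjusted threshold.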

How the data were processed

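RNA of 6 Jurkat samples (3 CXCL12, 3 untreated) was measured on 6 arrays. The deposited table holds log2 signals per probe set; the authors used RMA and the Transcriptome Analysis Console, per the submitters' processing notes, with versions, settings and genome build not given in the sources used here. Without scanner files, which were not used here, detection and scan dates could not be looked at, and 6 arrays limit the precision.

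Groups came from the sample titles. Gene symbols are those of the platform annotation, which can be old. Values were fitted as deposited with limma 3.58.1 in R 4.3.3 (lmFit, eBayes, two-sided, no covariates) over the 16086 probe sets whose mean was at or above the 25th percentile, with Benjamini-Hochberg adjustment over all of them and a threshold of 0.05. The fit was also run on simulated data with independent normal values for each probe set and array. Such data hold no array set apart like untreated replicate 1, so that run does not bear on its effect. The difference between JUN and FOS was tested by exact permutation of the 6 arrays, with an outcome fixed by the separation of each gene.

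The members and lists were chosen with earlier results of these data known. The text names the 10 members, EGR1 and CD69 as the probe sets past the threshold, the 3 genes with the smallest p of each of 5 lists plus any past the threshold, and the 5 profiles nearest to JUN. Lineage markers and promoter windows named beyond these were chosen after their values were seen. Alternatives were other dim filters, renormalization, array weights, a replicate block, a robust prior with trend, an unadjusted threshold, averaged probe sets, a linear scale and leaving out each array. Promoter windows came from the RefSeq table of GRCh38.p14.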

Additional observations from a re-analysis of the deposited data

How the results depend on the processing

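The count of AP-1 members past the adjusted threshold was 0 in each of 15 refits and 1 (JUN) with an unadjusted threshold. The count with an unadjusted p under 0.05 was 1. It was 0 with a stricter dim filter at 50% of probe sets, which removed JUN, FOSB, FOSL1 and ATF3, 2 with array weights (JUN and FOSB), and 1 to 2 in the fits lacking an array. The second gene was FOSB without untreated replicate 1, JUNB without untreated replicate 2 and FOSL1 without CXCL12 replicate 2. The JUN change kept its direction in its 14 refits, from 0.58 to 0.77, with a limma adjusted p from 0.234 to 0.99998. The JUN minus FOS difference kept its direction in its 11 alternatives, from 0.67 to 0.86. The BATF change turned to -0.0353 with array weights and lay between -0.0706 and 0.0796 in the fits lacking an array, with -0.00636 without CXCL12 replicate 3. With median centring of each array it was 0.00743. Over all probe sets the count of 2 became 1 under cyclic loess, median centring or no filter, 3 with the stricter dim filter or the robust prior with trend, 4 with array weights, and 1 to 2 in the fits lacking an array. The cause of these moves was not tested.

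A replicate block gave 2 probe sets past the threshold and 0 members, with a JUN change of 0.69 (limma adjusted p = 0.985). Under the block the JUN minus FOS difference was 0.76 (exact permutation p = 0.25, the smallest that 3 pairs allow). That value of p again follows from the separation of both genes. The labels state no pairing, and deviations of same-numbered arrays correlated at -0.19, -0.11 and 0.11. With 3 arrays a group, 95% intervals reached a median of 1.23-fold to each side.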

Other observations

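Of the other members, the distance of the profile from that of JUN was 0.256 for FOSL1, 0.268 for JUND, 0.305 for ATF3, 0.340 for BATF, 0.342 for FOSB, 0.348 for FOSL2 and 0.430 for BATF3, each the root mean square difference of centred log2 signals over the 6 arrays. FOS and BATF3 were the members with a negative change, and they lay farthest from JUN. The distance is taken over the same 6 arrays as the changes, so it adds no separate evidence. A profile without any variation would lie at 0.372 from JUN.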
